A study of Mus musculus with 8 samples.

Results

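The MYC and MAX network is a family of basic helix-loop-helix leucine zipper transcription factors, and it was followed here through 10 genes: Myc, Mycn, Max, Mxd1, Mxd3, Mxd4, Mxi1, Mnt, Mlx and Mga. Members were the array features whose annotated gene symbol is one of these names, which gave 29 of the 45220 features in the table. All 10 genes were represented, of 19087 genes with a named feature. Polyadenylated RNA of splenic B cells (B splenocytes) was hybridised to 1-colour Agilent mouse arrays, 1 array per mouse. The wild type group held 4 C57BL/6 mice. The lymphoma group held 4 mice on the same strain that carry c-myc together with Cdk4 R24C. This mutant of the kinase that drives entry into the cell cycle escapes the INK4 inhibitors. The sources used here give neither ages nor the promoter that drives c-myc, nor whether the array's Myc features read an introduced copy. The lymphoma group carries both alterations, so the effects of c-myc, of Cdk4 R24C and of the tumour state cannot be told apart.

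MYC proteins bind DNA only after pairing with MAX, mainly at E-boxes with the letters CACGTG, and switch on genes of growth, ribosome production and metabolism. The MXD proteins, MXI1 and MNT also pair with MAX at such sites, where they recruit the SIN3 corepressor and oppose MYC. MGA joins MAX to a Polycomb complex, and MLX is a second partner that serves the glucose-sensing factors MondoA and ChREBP as well as some MXD proteins. MYC is held low in resting B cells, is induced on activation, and is deregulated in many B cell lymphomas.

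Several of these genes carry the E-box that their own proteins recognise, and the stretches are shown because they are the sites through which members could meet each other. RefSeq windows from 250 bases before to 50 bases after a start site (build GRCm38.p6) covered 9 of the 10 genes, with 11 windows in all. Myc had no window, so its promoter was not searched. The letters CACGTG, which read the same on both strands, occurred in 4 of the 11 windows and in 7.15% of the 32851 promoter windows of the table. Each stretch below runs 5′ to 3′ on the gene's strand with the E-box in capitals and 15 bases on either side.
Max, chr12:76962231-76962266, minus strand: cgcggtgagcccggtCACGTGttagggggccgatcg
Mxd4, chr5:34187909-34187944, minus strand: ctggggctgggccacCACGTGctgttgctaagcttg
Mnt, chr11:74830786-74830821, plus strand: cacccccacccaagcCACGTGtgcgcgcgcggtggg
Mlx, chr11:101087235-101087270, plus strand: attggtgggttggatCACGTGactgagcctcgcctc
The E-box began 3 bases before the start site in Max, 40 in Mlx, 123 in Mnt and 219 in Mxd4. The windows of Mycn, Mxd1, Mxd3, Mxi1 and Mga did not hold these letters. A match is a description of the sequence and shows no binding.

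All values below are scaled log2 intensities, and a difference is lymphoma minus wild type on the log2 scale with its standard error (SE). Signal at background means below the 95th percentile of olfactory and vomeronasal receptor features on that array, which lay between 7.17 and 7.45. Slide 1 held wild type 1 and 2 with lymphoma 1 and 2, and slide 2 held the other 4 arrays. Wild type 1 was the only array that correlated better with the other group than with its own. Across features its mean r was 0.963 with the lymphomas and 0.941 with its own group. Wild type 2 had the lowest mean r with its own group, at 0.935, and 0.918 with the lymphomas. The 6 measured B cell markers were above background on all 8 arrays, with summed intensities of 135756 to 211076 in wild type and 165957 to 233907 in lymphoma. Cd79b, Blnk and Ms4a1 were near the scanner top on 7, 7 and 5 arrays, which limits what the sum can show. Cd22, a B cell inhibitory receptor, was lower on every lymphoma array than on every control, at -1.03 ± 0.27 (adjusted p 0.0854 in limma). With the shift along feature number removed Cd22 differed by -1.51 (adjusted p 0.0346 in limma). Of the 6 markers 4 had a positive difference. Pax5 and Cd79a, which like Cd22 were never near the top, differed by -0.60 and 0.09 (adjusted p 0.478 and 0.914 in limma). For other cells the sums in wild type and lymphoma were 14543 to 21947 against 4977 to 7760 for 3 macrophage genes, and 6402 to 17122 against 1373 to 4711 for 4 granulocyte genes, with no overlap. They overlapped for 4 plasma cell genes (2589 to 28015 against 930 to 4045, through wild type 1 alone), 8 T and NK cell genes (2205 to 3623 against 1511 to 2221) and 2 erythroid genes (397 to 1058 against 328 to 458). Limma called 2 of the 3 macrophage genes, 1 of the 4 granulocyte genes and 2 of the 4 plasma cell genes lower, the latter being Sdc1 (-1.74, adjusted p 0.0296) and Tnfrsf17 (-1.74, adjusted p 0.0306). Of these markers 1 granulocyte gene and 1 T or NK cell gene were at background on every array. Fewer cells of a type and less RNA per cell cannot be told apart. The part of these cells in the network values was not tested.

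By 1 feature per gene, Mxi1, Mxd4 and Myc gave the largest differences of the network, all higher in lymphoma, but with all 8 arrays no member passed the test. Limma with Benjamini-Hochberg adjustment called 0 of the 29 member features at an adjusted p of 0.05, where 1.65% of all 33709 tested features were called. By 1 feature per gene it called 0 of the 10 members, against 2.08% of all genes. At an unadjusted p under 0.05 there were 4 member features (14.5% of all features) and 1 member gene (15.9% of all genes). Of the 29 features 23 had a positive difference, but 12 of them belong to Myc, and the share over all features was not counted. With 1 feature per gene the median difference of the network was 0.28, beside 0.06 over all genes. The groups were fully separate in 1 member feature, a Mycn feature at background, and in 9.25% of all features.

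**Figure D1:**
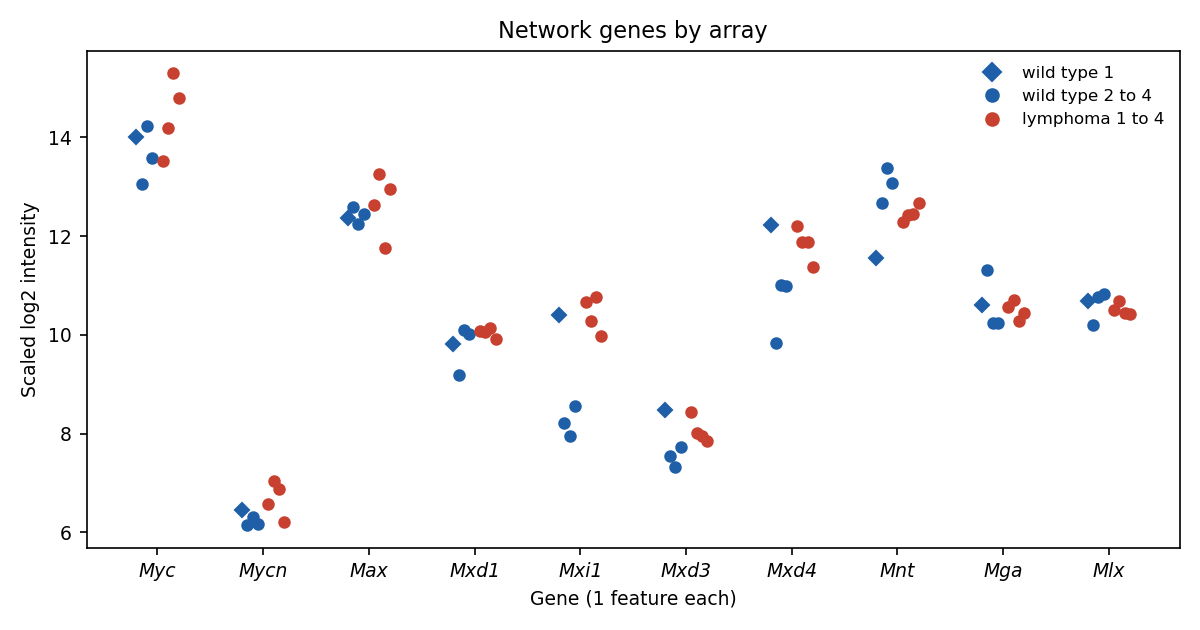
Scaled log2 intensity (vertical axis) of 1 feature for each of the 10 network genes on the 8 arrays; every point is 1 mouse, blue for wild type and red for lymphoma, and the diamond is wild type 1. The diamond of Mxi1 sits at 10.40 among the lymphoma points, above the other controls at 7.96 to 8.56.

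Myc, the oncogene of the model, was measured by 12 features listed for the same transcript. Only 2 of them stayed away from the top of the scanner on all arrays, where near the top means at least 80% of the highest intensity on the array. The other 10 were near the top on at least 1 array, and a reading there is compressed. The highest signal on an array corresponded to 65433 to 65535 scanner units.

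The brighter Myc feature clear of the top read 14.01, 13.06, 14.23 and 13.59 in wild type 1 to 4. In lymphoma 1 to 4 it read 13.52, 14.19, 15.30 and 14.80. Lymphoma 3 and 4 were above every control, while lymphoma 1 lay below wild type 1, 3 and 4. The difference was 0.73 ± 0.38 (SE, n = 4 mice per group), with an adjusted p of 0.406 in limma and a 95% confidence interval from -0.09 to 1.56. On leaving out single arrays it ran from 0.45 (without lymphoma 3) to 1.04 (without lymphoma 1). The dimmer clear feature differed by 0.41 ± 0.38 (adjusted p 0.664 in limma).

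Among the Myc features that reached the top, differences ran from 0.35 to 1.61. The largest belonged to a feature that read 15.88, 13.76, 13.99 and 13.27 in wild type 1 to 4. Lymphoma 1 to 4 read 15.76, 15.83, 15.86 and 15.91 there. Wild type 1 sat with the lymphomas and the other controls lay well below, so that the groups overlapped through that array alone. Its difference was 1.61 ± 0.45, an adjusted p of 0.106 in limma. The lymphoma arrays spanned little here, and 3 of the 4 readings, with that of wild type 1, were near the top, so the size of this difference is limited by the scanner.

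**Figure D2:**
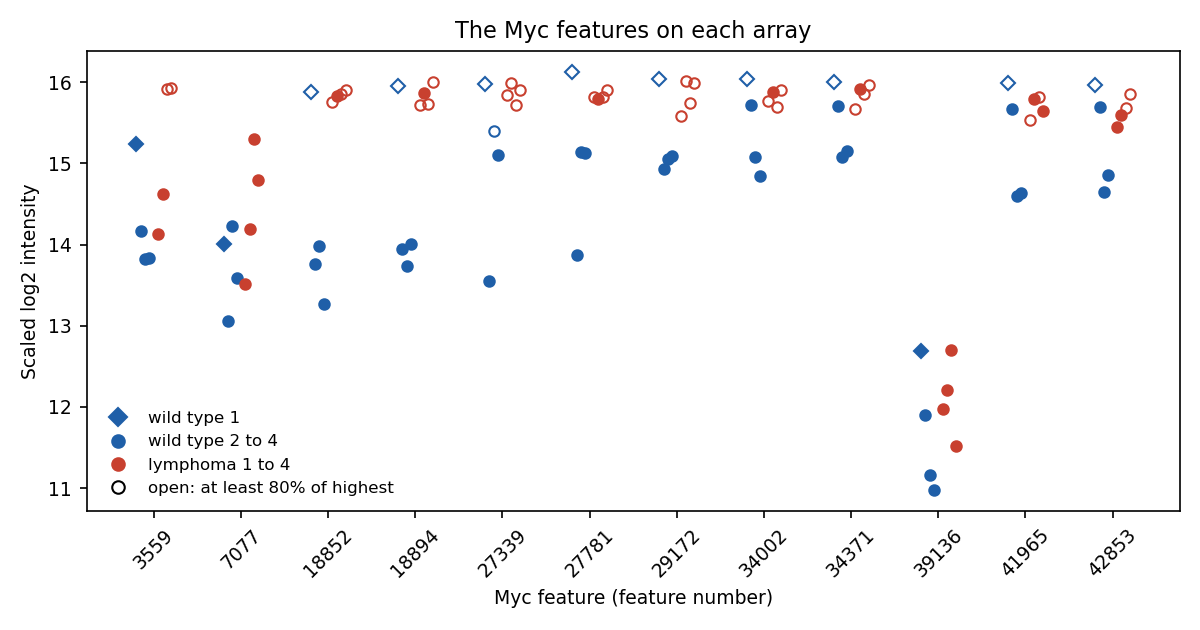
Scaled log2 intensity (vertical axis) of the 12 Myc features in order of feature number (horizontal axis), 1 point per array; blue is wild type with wild type 1 as a diamond, red is lymphoma, and open symbols are at least 80% of the highest intensity of their array. Wild type 1 is near the top in 9 of the 12 features, and wild type 2 in none.

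Features of the same transcript also disagreed within single arrays. Over the 10 Myc features that reached the top on some array, wild type 2 ran from 13.55 to 15.72, a range of 2.17 log2 units. The range was 0.23 in lymphoma 3 and 0.35 in lymphoma 4, where 10 and 9 of the 12 features were near the top. In the other arrays it lay between 0.89 and 1.88. The same was seen beyond Myc: over 50 accessions with at least 10 features each, the median absolute deviation among features of an accession was 0.67 in wild type 2, 0.16 and 0.19 in lymphoma 3 and 4, and 0.36 to 0.41 in the other 5 arrays.

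Signal also varied with the feature number, the order in which the table lists the spots. Among features above background, wild type 2 fell from the mean over arrays by 0.85 around features 18089 to 21099 and exceeded it by 0.68 from feature 42210 on. Wild type 1 was lowest at the first features, at -0.58, and lymphoma 1 between features 6031 and 9044, at -0.52. Lymphoma 3 and 4 followed each other closely, as did wild type 3 and 4. Averaged over arrays, these shifts set lymphoma above wild type by 0.46 at features 15074 to 18087 and below it by -0.26 at features 39191 to 42199.

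**Figure D3:**
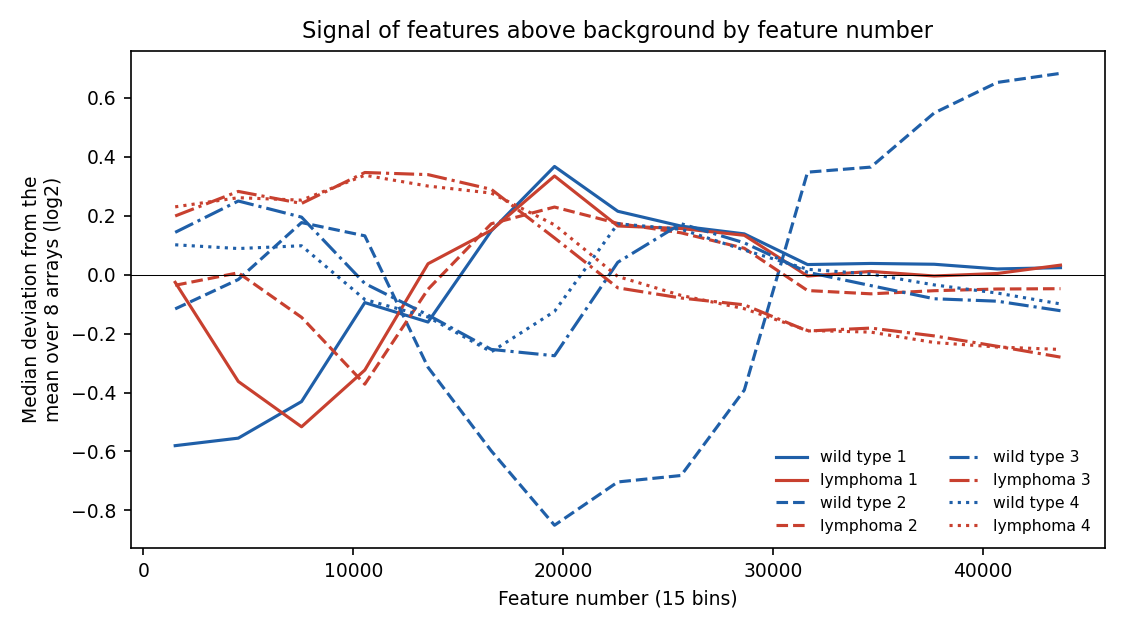
Median deviation of features above background from their mean over the 8 arrays (vertical axis, log2) in 15 bins of feature number (horizontal axis), 1 line per array, blue for wild type and red for lymphoma. Wild type 2 moves from -0.85 to 0.68, more than any other array.

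The trend along feature number was subtracted from each array, an alternative chosen after the data were seen. It removes what an array does differently from the mean of the arrays and leaves what they share. Only features above background on average were changed. Both Mycn features and the dimmest features of Mxd1, Mxd4, Mga and Mlx kept their values and stay in the counts below. The 12 Myc features then drew closer together, with differences from 0.56 to 1.14 in place of 0.35 to 1.61. All 12 were positive in both versions. Within arrays the effect was mixed: the range of the 10 Myc features went from 2.17 to 1.22 in wild type 2, stayed at 1.65 against 1.66 in wild type 3, and went from 0.23 to 0.53 in lymphoma 3 and from 0.35 to 0.50 in lymphoma 4. The spread over the 50 accessions likewise went from 0.67 to 0.43 in wild type 2 and from 0.16 to 0.27 in lymphoma 3. The Myc feature clear of the scanner top differed by 0.74 ± 0.34 (adjusted p 0.314 in limma). Limma again called 0 of 29 member features, with 2.14% of all features called, and 0 of 10 member genes, with 2.68% of all genes called. The smallest adjusted p of a member was 0.114, for Mxi1.

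Mycn, the MYC paralog of neural and early lymphoid cells, was not detected. Both of its features were at background on all 8 arrays, with means of 6.27 and 6.23 in wild type and 6.68 and 6.54 in lymphoma.

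Max, the partner that MYC proteins need to bind DNA and that MXD proteins also pair with, had 1 feature. It read 12.36, 12.60, 12.25 and 12.45 in wild type 1 to 4 and 12.62, 13.27, 11.75 and 12.96 in lymphoma 1 to 4. Lymphoma 3 was the lowest array and lymphoma 2 the highest, so the lymphomas enclosed the controls. The difference was 0.24 ± 0.30 (adjusted p 0.766 in limma), with a 95% confidence interval from -0.42 to 0.90.

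Mxi1, a MAX-binding repressor, showed the largest difference among the network genes read by 1 feature each. Its feature read 10.40, 8.22, 7.96 and 8.56 in wild type 1 to 4. Lymphoma 1 to 4 read 10.67, 10.29, 10.77 and 9.97. Wild type 2 to 4 lay below every lymphoma, and wild type 1 lay within the lymphoma range. The difference was 1.64 ± 0.45 (SE, n = 4 per group; adjusted p 0.105 in limma), a 3.12-fold higher signal with a 95% confidence interval from 1.57-fold to 6.21-fold. This spot lies where the position shift set lymphoma above wild type by 0.44, and with the trend removed the difference was 1.20 ± 0.35. Within slide 1 it was 1.17 and within slide 2 it was 2.11 (adjusted p 0.708 and 0.0376 in limma, 2 arrays per group each).

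Mxd4, a repressor associated with resting and differentiating cells, came next by the same measure, while 4 Myc features near the scanner top had larger differences. Its brightest feature read 12.22, 9.83, 11.00 and 10.98 in wild type 1 to 4. The lymphoma arrays 1 to 4 gave 12.20, 11.88, 11.88 and 11.37. As for Mxi1, wild type 1 was the only control that reached the lymphomas. The difference was 0.83 ± 0.41 (adjusted p 0.391 in limma), and leaving out single arrays gave 0.43 (without wild type 2) to 1.23 (without wild type 1). A second Mxd4 feature differed by 0.69 ± 0.43, and the third, at background on all controls, by 0.61 ± 0.25 (adjusted p 0.495 and 0.281 in limma).

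Mxd1 and Mxd3 differed little. Mxd1, induced when blood cells differentiate, ranged from 9.18 to 10.10 in wild type and from 9.92 to 10.13 in lymphoma, a difference of 0.27 ± 0.24 (adjusted p 0.652 in limma). Mxd3, an MXD protein linked to the S phase of proliferating cells, ranged from 7.33 to 8.49 in wild type and from 7.85 to 8.43 in lymphoma, close to background, with a difference of 0.29 ± 0.27 (adjusted p 0.672 in limma). The second feature of Mxd1, close to background, differed by -0.12 ± 0.22 (adjusted p 0.839 in limma), and that of Mxd3 by 0.01.

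Mnt, the broadly expressed antagonist of MYC, pointed the other way. It read 11.55, 12.68, 13.37 and 13.07 in wild type 1 to 4, and 12.28, 12.42, 12.45 and 12.67 in lymphoma 1 to 4. Wild type 3 and 4 lay above all lymphomas, wild type 2 lay level with the highest of them, and wild type 1 lay below them all. The difference was -0.21 ± 0.34 (adjusted p 0.823 in limma). Within slide 1 it was 0.24 and within slide 2 it was -0.66, both short of the threshold (adjusted p 0.866 and 0.164 in limma).

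For the brightest features of Mga and Mlx all lymphoma values lay inside the wild type range. The brightest feature of Mga, a MAX-binding scaffold, ranged from 10.23 to 11.31 in wild type and from 10.27 to 10.71 in lymphoma, with a difference of -0.10 ± 0.27 and a 95% confidence interval from -0.68 to 0.48. Wild type 2 was the highest array. With the position trend removed the sign changed, to 0.14 ± 0.18 (adjusted p 0.768 in limma). A second Mga feature differed by -0.23 ± 0.27, with lymphoma 4 the lowest array at 9.89, and the dimmest, at background on all arrays, by 0.30 ± 0.28. The brightest feature of Mlx ranged from 10.20 to 10.82 in wild type and from 10.43 to 10.69 in lymphoma. Its difference was -0.10 ± 0.21, with an interval from -0.57 to 0.37. The dimmer Mlx feature, close to background, differed by -0.11 ± 0.26 (adjusted p 0.891 in limma).

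Leaving out wild type 1 moved 1 feature each of Myc (0.73 to 0.83), Mycn (0.41 to 0.47), Mxd1 (0.27 to 0.28), Mxi1 (1.64 to 2.18), Mxd3 (0.29 to 0.53), Mxd4 (0.83 to 1.23) and Mnt (-0.21 to -0.59) away from 0. Those of Max, Mga and Mlx moved slightly towards 0, and the dimmest Mxd4 feature went from 0.61 to 0.49. This array was left out because it lay near the lymphomas, so wider differences are partly built in, and all features gained calls. Without it limma called 5 of the 29 member features, where 6.87% of all features were called, and 2 of the 10 genes, where 8.16% of all genes were. The called features were those of Mxi1 (2.18 ± 0.27, adjusted p 7.29e-04), Mxd4 (1.23 ± 0.33, adjusted p 0.0466) and 3 of Myc that reached the scanner top, the largest at 2.16 ± 0.23 (adjusted p 3.59e-04). Mxi1 was then 4.53-fold higher and Mxd4 2.34-fold higher in lymphoma. Mnt differed by -0.59 ± 0.24 and did not pass (adjusted p 0.195 in limma). The groups did not overlap in 11 of the 29 features, while this held for 20.0% of all features.

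With wild type 1 left out and the position trend removed, 13 of the 29 member features passed in limma, all higher in lymphoma, where 7.05% of all features passed in either direction and 3.31% were higher. They comprised 10 of the 12 Myc features, the Mxi1 feature and 2 of the 3 Mxd4 features. The Myc features are not independent of each other, and by 1 feature per gene 2 of 10 members passed, against 8.29% of all genes. The 12 Myc differences lay between 0.77 and 1.50, and of the features clear of the scanner top the brighter differed by 1.00 ± 0.30 (adjusted p 0.0817) and the dimmer by 1.04 ± 0.26 (adjusted p 0.0418). Mxi1 differed by 1.56 ± 0.27 (adjusted p 0.00603) and Mxd4 by 1.08 ± 0.22 (adjusted p 0.0150). Mnt differed by -0.63 ± 0.19, with an adjusted p of 0.0870. Max, Mycn, Mxd1, Mxd3, Mnt, Mga and Mlx had no called feature with or without wild type 1, with or without the trend.

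**Figure D4:**
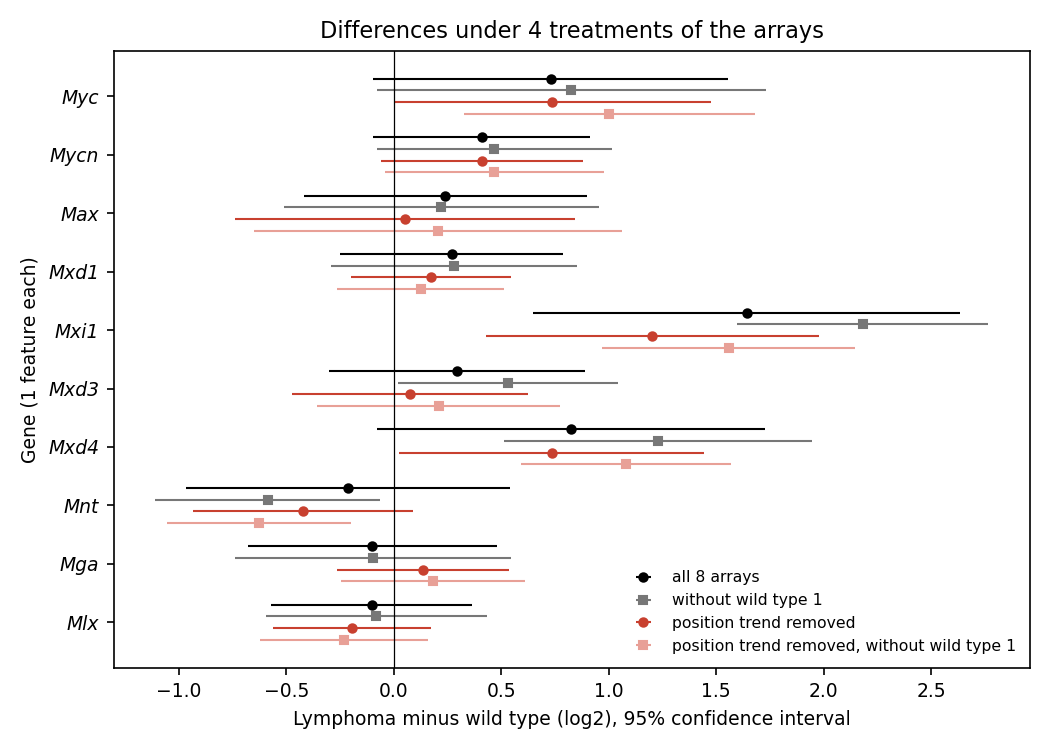
Lymphoma minus wild type (horizontal axis, log2) for 1 feature of each network gene, with 95% confidence intervals from limma, under all 8 arrays, without wild type 1, with the position trend removed, and with both. The whole interval of Mxi1 lies above 0 in all 4, and the sign of Mga changes when the trend is removed.

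The slides were set against each other by the interaction of slide and group. Limma called 0 of the 29 member features for it, and 0 of all 33709 features. At an unadjusted p under 0.05 there were 5 of the 29 and 7.57% of all features. All 5 were Myc features that reached the scanner top. The largest change belonged to the Myc feature whose difference was -0.33 within slide 1 and 2.09 within slide 2 (adjusted p of the interaction 0.336 in limma).

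Across the 8 arrays, the genes most like the Myc feature clear of the scanner top were Vwa5a (r = 0.943), Dusp10 (0.940), Pik3ip1 (0.927), Nat10 (0.918) and Ubp1 (0.913), out of 10575 genes above background on at least 4 arrays. Dusp10 is a phosphatase of stress kinases, Pik3ip1 an inhibitor of PI3 kinase and Nat10 an RNA acetyltransferase. The points share their arrays, the scaling and the position shifts, and the correlations are a description of 8 arrays. Among the members, r with Myc ran from -0.60 for Mga to 0.59 for Mxd1. With the position trend removed it ran from -0.80 for Mlx to 0.80 for Mxd4, and that of Mga was 0.01.

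Genes around the network were taken from 8 lists with 116 measured genes, of which 3 were higher and 0 lower, where 0.817% of all genes were called higher and 1.26% lower. All 3 belong to the 34 genes known to be activated by MYC, whose median difference was 0.45, beside 0.06 over all genes. Of the 34 genes 29 had a positive difference, and the share over all genes was not counted. Srm, which makes spermidine, read 12.15, 11.40, 11.49 and 10.99 in wild type 1 to 4 and 13.26, 12.52, 12.98 and 12.93 in lymphoma 1 to 4, a rise of 1.41 ± 0.27 (adjusted p 0.0302 in limma). Nop16, a nucleolar protein, rose by 2.29 ± 0.45 (adjusted p 0.0334), while Polr1b, which belongs to RNA polymerase I, rose by 1.27 ± 0.27 (adjusted p 0.0406). In all 3 every lymphoma lay above every control, wild type 1 included. On leaving out single arrays, Srm passed without wild type 1 or without lymphoma 2, and Nop16 and Polr1b passed without wild type 1. Without any other array the adjusted p lay between 0.0620 and 0.116. The differences moved less, from 1.24 to 1.63 for Srm, from 2.01 to 2.84 for Nop16 and from 1.08 to 1.37 for Polr1b.

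With the position trend removed none of these 3 passed, at 1.20 for Srm (adjusted p 0.124), 1.81 for Nop16 (0.0514) and 1.07 for Polr1b (0.109) in limma, where 0.739% of all genes were called higher. The median gene of this list was 0.77 higher in wild type 1 than in the mean of wild type 2 to 4. Without it 10 of the 34 passed, all higher, against 4.28% of all genes called higher, and with both changes 8 passed, against 3.82%.

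Of 8 genes known to be repressed by MYC 0 passed in limma with all 8 arrays, and the median difference of the 8 was -0.51. At an unadjusted p under 0.05 there were 4 of the 8, beside 15.9% of all genes. Of these 4 Btg1, Gadd45a and Btg2 had negative differences. Cdkn2b, an INK4 inhibitor of CDK4, had a positive one of 0.94 ± 0.38 (adjusted p 0.276 in limma). Without wild type 1 limma called 1 of the 8 higher and 3 lower, where 8.16% of all genes were called in either direction. Cdkn2b was the higher one, at 1.34 (adjusted p 0.0158). Btg1, Gadd45a and Btg2 were lower, at -1.48, -1.455 and -1.21 (adjusted p 0.00974, 0.0446 and 0.00632). Btg1, an antiproliferative factor, read 12.34, 12.64, 13.38 and 13.37 in wild type 1 to 4 and 11.81, 11.67, 11.98 and 11.13 in lymphoma 1 to 4. Every lymphoma lay below every control, with a difference of -1.28 ± 0.29 (adjusted p 0.0536 in limma). With the position trend removed Btg1 fell by 1.35 and Gadd45a, a growth arrest gene, fell by 1.48 (adjusted p 0.0308 and 0.0301), where 1.94% of all genes were called lower.

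**Figure D5:**
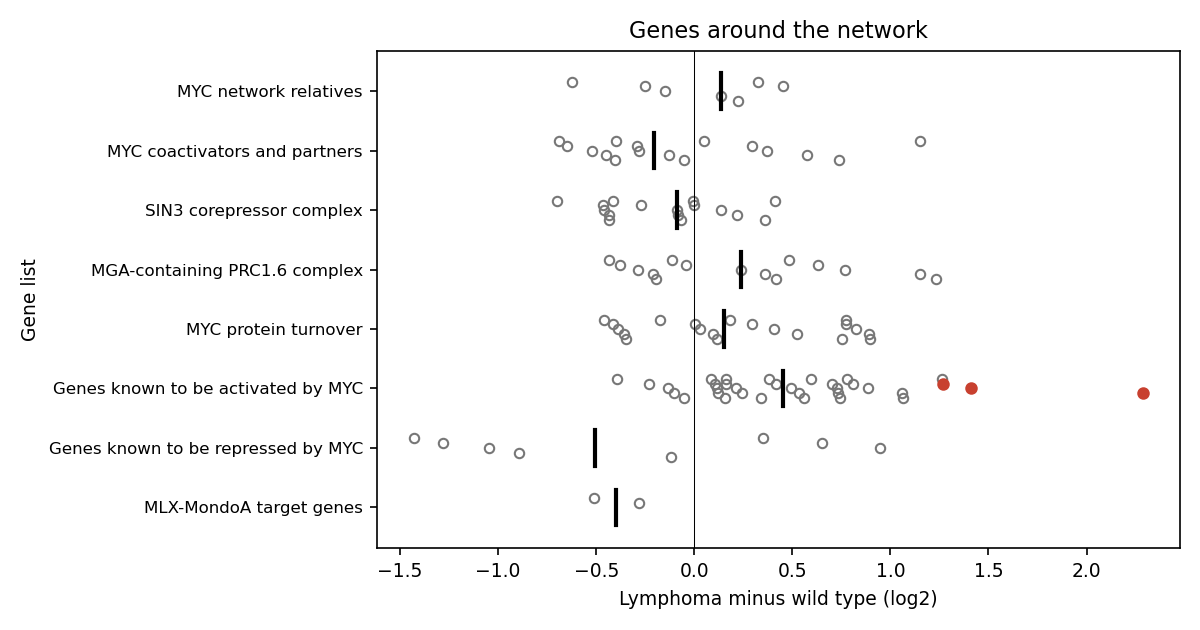
Lymphoma minus wild type (horizontal axis, log2) for the genes of 8 lists around the network, 1 point per gene; filled red points passed an adjusted p of 0.05, and black bars are list medians. The 3 filled points, Srm, Nop16 and Polr1b, lie at 1.41, 2.29 and 1.27 in the list of genes activated by MYC.

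The other 6 lists held 0 called genes in limma with all 8 arrays. They had 1 to 4 genes each at an unadjusted p under 0.05, where 15.9% of all genes were. Of the 15 partners of MGA in its Polycomb complex, E2f6, a repressor of the E2F family, came closest at 1.23 ± 0.29 (adjusted p 0.0615 in limma), with 9.53 to 10.67 in wild type and 10.58 to 11.36 in lymphoma. Without wild type 1 it passed, at 1.49 (adjusted p 0.00486 in limma), where 4.28% of all genes were called higher. Wdr5, which is also in the list of MYC coactivators, passed there too, at 1.61 (adjusted p 0.00944 in limma). Among 16 MYC coactivators Kat5, an acetyltransferase, differed by 0.74 ± 0.23 (adjusted p 0.144), and the list median was -0.21. For 16 members of the SIN3 corepressor complex, through which MXD proteins repress, the median was -0.09, and Ing2 had the smallest p, with a difference of -0.70 ± 0.25 (adjusted p 0.223). Trim32, a ubiquitin ligase of MYC, had the smallest p of the 20 genes of MYC protein turnover, with a difference of 0.83 ± 0.23 (adjusted p 0.109). In this list Fbxw7 was called higher without wild type 1, at 1.14 (adjusted p 0.0422 in limma). Of 7 relatives of the network, Bmyc differed by -0.62 ± 0.26 (adjusted p 0.285). Both measured targets of MLX and MondoA had negative differences, and Arrdc4, a regulator of glucose uptake, read -0.51 ± 0.21 (adjusted p 0.277) close to background.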

How the data were processed

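The authors deposited log2 intensities of 45220 features on 8 arrays, 4 per group with 0.5 µg of RNA each. The sources used here do not state the background correction or normalization. Array medians as deposited were 7.04 to 7.26, and precision is set by the number of arrays.

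Features were named through the platform annotation (33709 listed, 56 of them with several symbols and left unnamed). Values were shifted per array to bring the 75th percentiles over listed features to a common level. Limma 3.58.1 in R 4.3.3 (lmFit, eBayes, group as the only term, two-sided) was run on all listed features with Benjamini-Hochberg adjustment over them. On simulated data limma recovered 10 of 50 features changed by 1 log2 unit (20%) and 39 of 50 changed by 2 (78%). A feature that was not called may therefore still differ. The simulation used independent normal noise and changed only features above background on average. It held no outlying array, position trend or scanner ceiling, so its rates do not carry over to features near the top or at background. A gene was represented by its brightest feature that was never near the scanner top. Where every feature of a gene was near the top on some array, its brightest feature was used. This held for Npm1 and Fbl in the list of genes activated by MYC, and for Cd79b, Blnk and Ms4a1 among the markers. The background bound used 1114 receptor features. The position trend was a lowess curve (span 0.1) of deviations from the mean over arrays, for the 17188 features above the bound on average.

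The members and lists were chosen with earlier results of these data known. Named were all members, up to 4 called genes per list by size or otherwise the gene with the smallest p, and the 5 genes most correlated with Myc. Other genes were named after their values were seen (Gadd45a, Btg2, Cdkn2b, Wdr5, Fbxw7, Cd79a, Cd79b, Blnk, Ms4a1, Pax5, Npm1 and Fbl).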

Additional observations from a re-analysis of the deposited data

Results flagged for a closer look

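In 3 of 64 groups of 4 arrays, 1 array lay far from the other 3, measured by its gap to the nearest array as a share of the group's range. Chance gives about 1 in 20 such groups. For a Myc feature near the scanner top the gap was 0.876 of the range, with wild type 1 at 15.95 and the other controls at 13.74 to 14.01. For another Myc feature it was 0.850, with wild type 1 at 16.03 and the other controls at 14.93 to 15.09. For the dimmer Mlx feature, close to background, it was 0.845, with lymphoma 2 at 7.40 and the other lymphomas at 7.01 to 7.07.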

How the results depend on the processing

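Leaving out single arrays gave 84 to 2317 called features over the array, 0 to 5 called network features, 0 to 2 called network genes and 0 to 17 called pathway genes. Network calls appeared only without wild type 1. Against 557 features and 0 network features with all arrays, array weights gave 2128 features, 3 network features, 1 network gene and 13 pathway genes. Slide 2 alone gave 1949, 5, 1 and 12. Slide 1 alone gave 0 features and 0 pathway genes in limma, with 1761 features and 0 network features at an unadjusted p under 0.05. The position trend with wild type 1 left out gave 2376, 13, 2 and 16, and the trend alone gave 720, 0, 0 and 2 (Btg1 and Gadd45a). Pathway genes numbered 5 without the dimmer features and 1 with the mean of all features of each gene. Mxi1 passed with array weights (1.86, adjusted p 0.0106). Signs changed for Mxd1 within slide 2 (-0.0295), Mnt within slide 1 (0.24) and without wild type 3 (0.0217, with -0.587 as the lowest on leaving out single arrays), Mlx within slide 1 (0.15), and Mga with array weights (0.14), within slide 2 (0.12), with the trend removed (0.14; 0.18 without wild type 1 too) and without wild type 2 (0.14, with -0.220 as the lowest). These 4 genes passed in none of those settings, and the cause was not tested. Same-numbered arrays shared no clear deviation (correlations 0.18, -0.04, 0.13 and -0.02). The replicate block gave 713 features, 0 network features, 0 network genes and 4 pathway genes, and the slide block 629, 0, 0 and 4. Scanner compression limits the size of the Myc differences, and background limits Mycn and Mxd3.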
